A study of Saccharomyces cerevisiae with 8 samples.

Results

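The small subunit processome is the large nucleolar particle that forms on the newly made ribosomal RNA precursor and cuts, modifies and folds the part that becomes the small (40S) ribosomal subunit. It was examined here through 40 of its genes, listed by systematic gene ID, in budding yeast (Saccharomyces cerevisiae). All 40 were present among the 7126 genes of the deposited table, and all 40 passed the filter on low counts, which 6174 genes passed. The 40 genes were chosen by their known role and not by their values, although earlier results of these data were known when they were chosen.

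In the textbook view, the particle is assembled from modules. The UTP-A and UTP-B complexes bind the start of the precursor first, the U3 small nucleolar ribonucleoprotein (U3 snoRNP) pairs with it as a chaperone and guide, and the MPP10 complex, helicases, a GTPase and many single factors follow. Yeast genes for ribosome assembly are known as a co-regulated set that is high in fast growth and lowered in stress or nutrient limitation. Many of them carry short promoter elements called PAC, which the repressors Dot6 and Tod6 bind, and RRPE, which Stb3 binds.

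RNA was sequenced from BY4741, a haploid laboratory strain of the a mating type. A mutation strain, labelled as more tolerant of oxidation, was compared with a control strain, and each gave 2 libraries titled HP and 2 titled nHP. All groups grew to mid-exponential phase in synthetic medium without uracil, and the labels do not say which gene carries the mutation. The series text says that hydrogen peroxide was present or absent for both strains, whereas the medium entry of the labels puts it with every control library and with no mutation library. HP and nHP are therefore used as titles only, and if the medium entry were right, strain and peroxide could not be told apart. Nothing says that the 2 libraries of a group came from separate cultures, so p-values cover only how these samples spread, which may be technical.

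Total counts ran from 8296523 to 11202362 per library, and the 40 genes held 0.651% to 1.18% of them, with 302 to 10256 counts per gene and library. LEU2 and MET17, deleted in BY4741, had 0 counts in every library, where a count of 0 allows up to 0.362 counts per 1000000 counts (CPM). The a-cell genes MFA1, MFA2, STE2 and BAR1 ranged from 266 to 809 CPM in the control libraries but from 2.87 to 16.0 CPM in the mutation libraries, so the defining markers of mating type a were nearly absent from the mutation strain; the part of this in the results below was not tested. In bulk RNA, fewer cells with a transcript and less of it per cell cannot be told apart.

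The DNA before the start codons is shown first, since the genes moved together, for the 3 genes with the smallest p for a strain-dependent HP difference, ECM16, BMS1 and KRR1, and for the 2 with the largest, BUD21 and UTP30. ECM16 is a DEAH-box helicase that acts on U3, BMS1 a GTPase and KRR1 an assembly factor, while BUD21 and UTP30 are processome proteins that cells can grow without. Each run holds 250 bases before the start codon and the first 50 coding bases, read on the gene's own strand from the R64 reference of RefSeq. Capitals mark the PAC core GATGAG, searched on both strands, and the RRPE core AAAATTTT, which reads the same on both strands. A PAC and an RRPE core share no end letters and so cannot overlap, whereas PAC cores can overlap each other at an end letter. The files carry no coordinates and name no build, but the gene lengths implied by their RPKM values equal those of R64, within 0.5 bases, for all 40 genes and for 5844 of 5888 genes compared.
ECM16, chrXIII:523446-523745, forward strand: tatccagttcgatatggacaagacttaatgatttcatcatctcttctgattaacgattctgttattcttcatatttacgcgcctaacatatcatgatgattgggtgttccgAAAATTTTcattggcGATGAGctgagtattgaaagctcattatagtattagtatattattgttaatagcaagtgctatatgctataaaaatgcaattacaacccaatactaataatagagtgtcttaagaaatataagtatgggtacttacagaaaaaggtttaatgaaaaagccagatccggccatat
BMS1, chrXVI:143122-143421, reverse strand: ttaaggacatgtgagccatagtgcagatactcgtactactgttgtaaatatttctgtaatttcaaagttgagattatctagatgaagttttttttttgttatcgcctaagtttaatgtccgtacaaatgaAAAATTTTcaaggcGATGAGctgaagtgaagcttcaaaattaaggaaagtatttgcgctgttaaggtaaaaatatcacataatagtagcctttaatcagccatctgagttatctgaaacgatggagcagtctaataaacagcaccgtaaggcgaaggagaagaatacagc
KRR1, chrIII:23330-23629, reverse strand: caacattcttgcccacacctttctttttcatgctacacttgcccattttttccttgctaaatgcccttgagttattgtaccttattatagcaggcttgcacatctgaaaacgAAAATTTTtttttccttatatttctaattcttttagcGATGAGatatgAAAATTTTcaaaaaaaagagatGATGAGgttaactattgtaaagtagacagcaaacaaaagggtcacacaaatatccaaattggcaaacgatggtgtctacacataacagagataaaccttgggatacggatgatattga
BUD21, chrXV:472475-472774, forward strand: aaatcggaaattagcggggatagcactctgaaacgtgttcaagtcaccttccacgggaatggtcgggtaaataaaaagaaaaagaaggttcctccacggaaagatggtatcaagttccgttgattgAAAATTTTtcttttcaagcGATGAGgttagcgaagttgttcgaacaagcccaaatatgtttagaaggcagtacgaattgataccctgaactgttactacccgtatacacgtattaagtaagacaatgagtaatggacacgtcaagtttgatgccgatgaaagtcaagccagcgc
UTP30, chrXI:556268-556567, forward strand: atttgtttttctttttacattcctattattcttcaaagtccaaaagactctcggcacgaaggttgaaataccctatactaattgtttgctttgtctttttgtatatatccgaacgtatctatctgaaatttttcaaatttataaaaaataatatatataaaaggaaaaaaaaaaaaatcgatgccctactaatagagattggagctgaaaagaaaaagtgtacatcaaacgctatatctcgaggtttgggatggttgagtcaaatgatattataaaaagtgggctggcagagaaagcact

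ECM16 and BMS1 each had an RRPE core followed by a PAC core, at 139 and 124 bases before the start codon in ECM16 and at 120 and 106 bases in BMS1. KRR1 had 2 of each, RRPE at 138 and 90 bases and PAC at 101 and 68 bases. BUD21, which had the second largest interaction p of the 40, carried the same arrangement at 124 and 105 bases, and UTP30 held neither core. The cores were present in a gene whose interaction did not pass as well as in those with the smallest p. Any part of the cores in these differences was not tested.

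Of the 40 genes, 36 (90.0%) held a PAC core in this 300-base window, 29 (72.5%) an RRPE core and 28 (70.0%) both, while UTP22, UTP30 and EMG1 held neither. Among all 6001 nuclear protein-coding genes with a full window, the shares were 20.4% for PAC, 9.03% for RRPE and 4.38% for both. The 56 genes of 40S ribosomal proteins held a PAC core in 12.5% and both cores in none, and 59 assembly factors of the large (60S) subunit held a PAC core in 89.8%. Upstream matches in the 40 genes began at a median of 107 bases (PAC, 50 matches) and 133 bases (RRPE, 36 matches) before the start codon. PAC cores that overlap each other, as in NOC4 and DHR2, were each counted. In UTP4 the only PAC core lay inside the coding region.

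**Figure D1:**
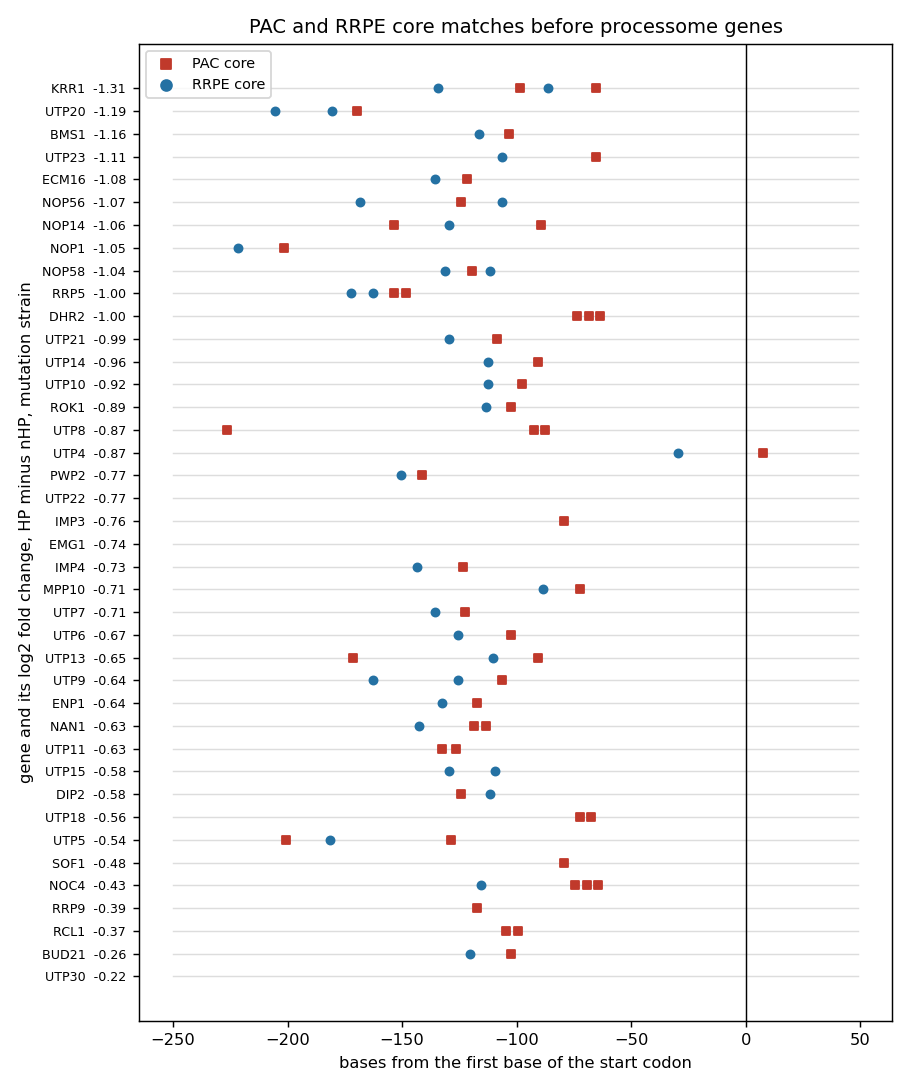
Positions of PAC core (squares) and RRPE core (circles) matches, in bases from the first base of the start codon, for the 40 genes, ordered by their log2 fold change HP minus nHP in the mutation strain, printed beside each name. Most matches lie between 60 and 190 bases before the start codon, and the last row, UTP30, and those of UTP22 and EMG1 are empty.

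The genes differ widely in level. On the scale of RPKM, reads per kilobase of coding length scaled to the library total, the mean over the 8 libraries was highest for NOP1 (YDL014W), the methyltransferase fibrillarin of box C/D snoRNPs, at 815 RPKM. Its partners NOP56 (YLR197W) and NOP58 (YOR310C) followed at 405 and 307 RPKM, and KRR1 (YCL059C) at 254 RPKM. The lowest were the helicase gene DHR2 (YKL078W) at 29.4 RPKM and UTP20 (YBL004W) at 37.7 RPKM. The median of the 40 was 98.6 RPKM, against 59.0 RPKM over all genes tested. The 3 core proteins NOP1, NOP56 and NOP58 also serve other box C/D snoRNPs, unlike the U3-specific protein gene RRP9 (YPR137W), which stood at 56.8 RPKM.

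Across the 4 groups one order prevailed: the nHP mutation libraries were highest, the libraries of both control groups lay between, and the HP mutation libraries were lowest. In 22 of 40 genes (55%) both nHP mutation libraries lay above all 4 control libraries and both HP mutation libraries lay below them, against 8.1% of all genes tested. Averaged over the 40 genes, log2 CPM relative to the mean of all libraries was 0.36 and 0.48 in the nHP mutation libraries, −0.15 and 0.01 in the nHP control libraries, −0.16 and 0.17 in the HP control libraries and −0.41 and −0.30 in the HP mutation libraries, in the order of replicates 1 and 2. Within every group replicate 1 was the lower one, in 37, 40, 40 and 36 of the 40 genes for nHP control, nHP mutation, HP control and HP mutation, while over all genes tested replicate 1 was the higher one in 46.7% to 51.8%. The gap between replicates was widest in HP control, with a median of −0.35 on the log2 scale.

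**Figure D2:**
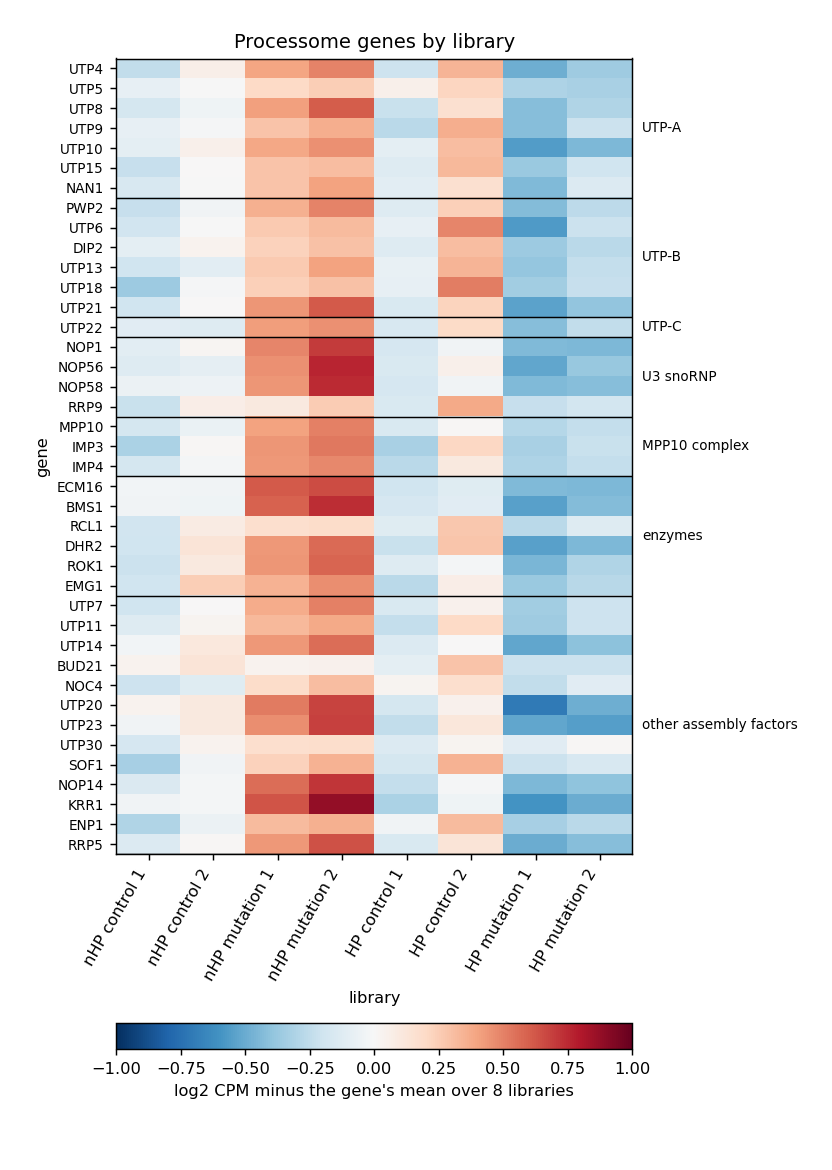
Log2 CPM of each of the 40 genes minus its own mean over the 8 libraries, with genes grouped by role and libraries in columns. The nHP mutation columns are red, the HP mutation columns blue and the control columns pale, and HP control replicate 2 is redder than replicate 1.

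Between the strains under the title nHP, processome genes were higher in the mutation strain. A gene is said to have risen or fallen when its p in edgeR's quasi-likelihood test, adjusted by Benjamini-Hochberg over 6174 genes, was below 0.05. Values after ± are standard errors of log2 fold changes. They were derived from that test, as the absolute log2 fold change divided by the square root of its F statistic. A rise was found in 30 of the 40 genes and a fall in none, and 10 did not pass, while 11.4% of all genes tested rose and 9.91% fell. The median log2 fold change was 0.53 (1.44-fold), against −0.02 over all genes, and BUD21 (YOR078W) alone lay below 0, at −0.04 ± 0.11. Without composition normalization the all-gene median was −0.15 and the split of all calls from 706 higher and 612 lower to 419 higher and 1236 lower, yet 22 of the 40 genes rose and none fell.

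The largest rises were in single assembly factors, enzymes and the U3 core. KRR1 stood at 225 and 227 CPM in the nHP control libraries and at 356 and 424 CPM in the nHP mutation libraries. These do not overlap, and KRR1 rose 1.72-fold (log2 0.79 ± 0.11, adjusted p = 0.000775 by edgeR's quasi-likelihood test). NOP56 stood at 544 and 559 CPM in control and at 818 and 1011 CPM in mutation, a 1.66-fold rise (0.73 ± 0.12). ECM16 (YMR128W) and BMS1 (YPL217C) rose by 0.66 ± 0.08 and 0.71 ± 0.10, with the smallest adjusted p of the 40 (0.00038 and 0.000537 in edgeR's quasi-likelihood test), and NOP14 (YDL148C), a factor that binds EMG1, rose by 0.72 ± 0.10. NOP1 rose 1.56-fold (0.64 ± 0.11), from 727 and 789 CPM to 1092 and 1269 CPM.

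By role, 5 of the 7 UTP-A genes rose, with a median of 0.42. UTP10 (YJL109C), the largest protein of this module, went from 225 and 250 CPM to 314 and 331 CPM (0.44 ± 0.12), and UTP5 (YDR398W) from 222 and 234 CPM to 270 and 279 CPM (0.27 ± 0.09), a call close to the threshold (adjusted p = 0.0499 by edgeR's quasi-likelihood test) that held in 7 of 18 settings, this one included. UTP9 and UTP15 did not pass. In UTP-B, a complex rich in proteins with WD40 repeats, PWP2 (YCR057C), UTP13 and UTP21 (YLR409C) rose and UTP6, DIP2 and UTP18 did not pass. UTP21 went from 172 and 198 CPM to 269 and 303 CPM (0.63 ± 0.13), and DIP2 (YLR129W) from 221 and 243 CPM to 278 and 291 CPM without passing (0.29 ± 0.13). UTP22 (YGR090W), the UTP-C subunit among the 40, rose by 0.56 ± 0.11, from 146 and 144 CPM to 211 and 216 CPM.

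All 3 genes of the MPP10 complex rose. MPP10 (YJR002W), its scaffold, rose by 0.57 ± 0.09, and its partners IMP3 (YHR148W) and IMP4 (YNL075W), which help U3 pair with the precursor, by 0.63 ± 0.16 and 0.55 ± 0.11. IMP3 went from 46.5 and 58.4 CPM to 78.6 and 83.7 CPM, and IMP4 from 100 and 112 CPM to 152 and 158 CPM. In the U3 snoRNP, NOP1, NOP56 and NOP58 rose, whereas RRP9, at 83.1 and 102 CPM in control and 104 and 116 CPM in mutation, did not pass (0.25 ± 0.15).

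Among the 6 enzymes, ECM16, BMS1, DHR2 and the DEAD-box helicase gene ROK1 (YGL171W) rose. DHR2 went from 55.2 and 68.9 CPM to 85.2 and 93.8 CPM (0.53 ± 0.15). The 18S rRNA methyltransferase gene EMG1 (YLR186W) and RCL1 (YOL010W), the BMS1 partner linked to precursor cleavage, did not pass, at 0.37 ± 0.14 and 0.23 ± 0.13. RCL1 stood at 97.6 and 118 CPM in control and at 125 and 126 CPM in mutation. Of the other 13 factors 11 rose, and BUD21 and UTP30 (YKR060W) did not pass. UTP30 lay at 34.2 and 39.5 CPM in control and 43.4 CPM in each mutation library, and BUD21 at 122 and 130 CPM against 122 and 123 CPM.

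The count of 30 depended on single libraries, and dropped to 8 when replicate 1 of nHP control, or replicate 2 of nHP mutation, was left out. Calls over all genes dropped in those fits too, from 706 higher to 178 and 226, while the median of the 40 was 0.42 and 0.47. In each of the 8 fits that left out 1 library, 7 genes rose: BMS1, ECM16, KRR1, MPP10, NOP14, NOP56 and NOP58.

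**Figure D3:**
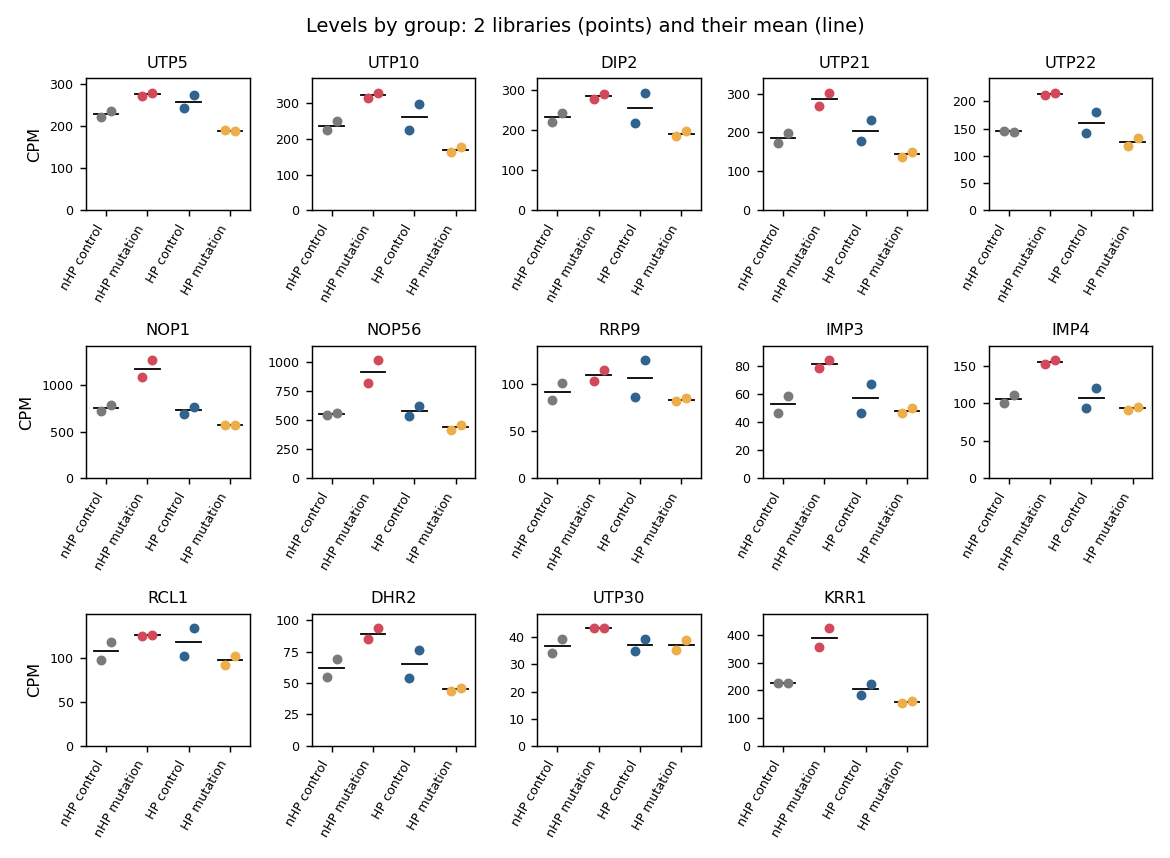
CPM after composition normalization on a linear axis from 0 for 14 genes, those with the largest and the smallest strain difference in each role group plus UTP22, NOP1 and UTP10, with 2 libraries per group as points and their mean as a line. The nHP mutation points of KRR1 reach 356 and 424 CPM and its HP mutation points 152 and 163 CPM, while all points of UTP30 lie between 34.2 and 43.4 CPM.

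Among the HP libraries the strain difference had the other sign. Of the 40 genes 26 fell in the mutation strain, none rose and 14 did not pass, while 14% of all genes tested fell and 14.7% rose. The median log2 fold change was −0.35 (1.28-fold lower), against −0.05 over all genes, and all 40 values were below 0, from −0.62 to −0.00. The genes with the smallest p were UTP5, UTP10 and UTP20, a scaffold protein of the particle. UTP10 stood at 224 and 297 CPM in HP control and at 163 and 177 CPM in HP mutation, a 1.54-fold fall (−0.62 ± 0.12, adjusted p = 0.00431 by edgeR's quasi-likelihood test). UTP5 went from 243 and 272 CPM to 189 and 187 CPM (−0.45 ± 0.09) and UTP20 from 241 and 281 CPM to 167 and 194 CPM (−0.53 ± 0.11).

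All 6 UTP-B genes fell, with a median of −0.48, and 4 of the 7 UTP-A genes did (UTP4, UTP5, UTP10 and UTP15). None of the 3 MPP10 complex genes passed. The UTP-B calls held in 8 (PWP2 and DIP2) to 15 (UTP21) of 18 settings, this one included, and that of UTP15 in 3. UTP21 went from 178 and 231 CPM to 136 and 151 CPM (−0.51 ± 0.13) and DIP2 from 217 and 294 CPM to 184 and 197 CPM (−0.43 ± 0.13). IMP3 and IMP4 overlapped between the strains, IMP3 at 46.4 and 66.8 CPM in control and 46.3 and 49.6 CPM in mutation (−0.25 ± 0.16), and IMP4 at 94.0 and 121 CPM against 91.4 and 95.6 CPM (−0.20 ± 0.12). As log2 CPM relative to the mean of all libraries, the UTP-B genes averaged −0.11 and 0.35 in HP control replicates 1 and 2. The MPP10 complex genes averaged −0.25 and 0.11 there, so both modules were higher in replicate 2. Whether the modules differ from each other was not tested. NOP1 fell by 0.35 ± 0.11 on the log2 scale, from 695 and 761 CPM to 573 and 570 CPM, NOP56 went from 535 and 616 CPM to 415 and 459 CPM (−0.40 ± 0.12), and RRP9, at 87.0 and 126 CPM against 82.5 and 85.2 CPM, did not pass (−0.35 ± 0.15).

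DHR2 went from 54.3 and 76.7 CPM to 43.5 and 46.3 CPM (−0.55 ± 0.16), KRR1 from 185 and 223 CPM to 152 and 163 CPM (−0.37 ± 0.11) and UTP22 from 141 and 180 CPM to 118 and 133 CPM (−0.36 ± 0.11), and each of them fell. RCL1, at 102 and 134 CPM against 92.4 and 102 CPM, did not pass (−0.29 ± 0.13). UTP30 stood at 35.0 and 39.2 CPM in control and 35.5 and 38.9 CPM in mutation, with a log2 fold change of −0.00 ± 0.11, and EMG1 at −0.24 ± 0.14 did not pass either. BUD21, which had not differed in nHP beyond its error, fell here from 111 and 145 CPM to 102 and 103 CPM (−0.33 ± 0.11), a call close to the threshold (adjusted p = 0.0492 by edgeR's quasi-likelihood test) that held in 3 of 18 settings, this one included.

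This count moved most with single libraries, and HP control replicate 1 lay nearer to the mutation libraries than replicate 2 did. Leaving out replicate 1 of HP control gave 37 genes and leaving out its replicate 2 gave 3. Leaving out replicate 1 of HP mutation gave 1 gene and its replicate 2 gave 6, whereas each nHP control library left out gave 13 and each nHP mutation library 17. The falls called over all genes moved as well, from 862 to 1205 and 368 without the respective HP control library and to 206 and 331 without the HP mutation libraries. The median of the 40 ranged from −0.48 to −0.19 over these fits. UTP5 alone fell in each of the 8 fits.

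**Figure D4:**
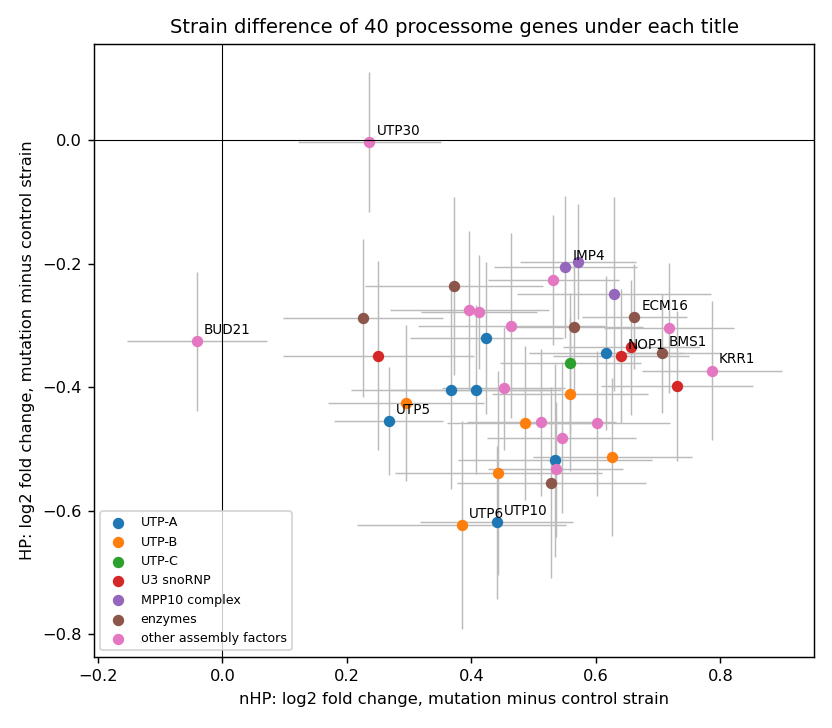
Log2 fold change, mutation minus control strain, in nHP (horizontal) and in HP (vertical) for the 40 genes, coloured by role, with standard errors as bars. Most points lie in the lower right, higher in nHP and lower in HP, and BUD21 and UTP30 stand apart from the rest.

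The difference between HP and nHP was then taken within each strain. In the control strain none of the 40 genes rose or fell in edgeR's quasi-likelihood test or in DESeq2, and 4 had an unadjusted p under 0.05 in the former; of all genes tested 1.44% rose and 0.518% fell. The median log2 fold change was 0.09, against 0.00 over all genes. The 3 smallest p belonged to NOC4 (YPR144C), the NOP14 partner, at 0.26 ± 0.09, ENP1 (YBR247C), a factor that stays with the 40S precursor, at 0.33 ± 0.12, and UTP18 (YJL069C) at 0.43 ± 0.17. NOC4 stood at 83.7 and 88.6 CPM in nHP and 98.1 and 109 CPM in HP, and did not pass. The 3 largest p belonged to UTP30, ROK1 and IMP4, at 0.02 ± 0.11, −0.02 ± 0.11 and 0.02 ± 0.11. The value depended on HP control replicate 1: without it the median was 0.24 and 8 genes rose (ENP1, RRP9, SOF1, UTP6, UTP9, UTP13, UTP15 and UTP18), and without replicate 2 the median was −0.09 and none rose.

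In the mutation strain the same titles differed by more. Of the 40 genes 37 fell from nHP to HP, none rose, and RRP9, BUD21 and UTP30 did not pass, while 24.1% of all genes tested fell and 25.2% rose. The median log2 fold change was −0.75 (1.68-fold lower), against 0.02 over all genes. Without composition normalization, 35 of the 40 fell, where the split of all calls moved from 1557 higher and 1486 lower to 2106 higher and 1051 lower. KRR1 fell 2.47-fold (−1.31 ± 0.11), from 356 and 424 CPM to 152 and 163 CPM. UTP20 fell 2.29-fold (−1.19 ± 0.11), from 391 and 434 CPM to 167 and 194 CPM. BMS1 and ECM16 fell 2.23-fold and 2.11-fold, BMS1 from 755 and 837 CPM to 343 and 371 CPM and ECM16 from 567 and 584 CPM to 274 and 272 CPM, with an adjusted p of 1.13e-05 for ECM16 in edgeR's quasi-likelihood test.

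NOP1, NOP56 and NOP58 fell together, with log2 fold changes of −1.05 ± 0.11, −1.07 ± 0.12 and −1.04 ± 0.11. Transcripts of these box C/D core proteins were thus 2.05-fold to 2.09-fold lower, and protein was not measured. All 7 UTP-A genes, all 6 UTP-B genes, all 3 MPP10 complex genes and all 6 enzymes fell, with medians of −0.64, −0.66, −0.73 and −0.94. UTP23 (YOR004W), a protein of the PIN-domain type, fell by 1.11 ± 0.12. RRP5 (YMR229C), needed for both subunits, fell 2.003-fold. At the other end, RCL1 fell by 0.37 ± 0.13 with an adjusted p of 0.0315 in edgeR's quasi-likelihood test, and UTP30 lay at −0.22 ± 0.11. In each of the 8 fits that left out 1 library 31 of the 40 fell, and the count stayed between 31 and 39.

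The interaction tests whether the HP difference depended on the strain. It was below 0 for all 40 genes and passed in 36, none of them higher, while 14.6% of all genes tested passed in each direction. Its median was −0.93, against 0.01 over all genes, with the smallest p for ECM16 (−0.95 ± 0.12), BMS1 (−1.05 ± 0.14) and KRR1 (−1.16 ± 0.16), with 0.00104, 0.00106 and 0.00123 as adjusted p from edgeR's quasi-likelihood model. RCL1 (−0.51 ± 0.18), RRP9 (−0.60 ± 0.22), BUD21 (−0.28 ± 0.16) and UTP30 (−0.24 ± 0.16) did not pass. Without composition normalization 34 passed and the split of all calls moved from 904 higher and 899 lower to 1321 and 576. With any 1 library left out the count lay between 26 and 39, and 26 genes passed in each of the 8 fits.

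**Figure D5:**
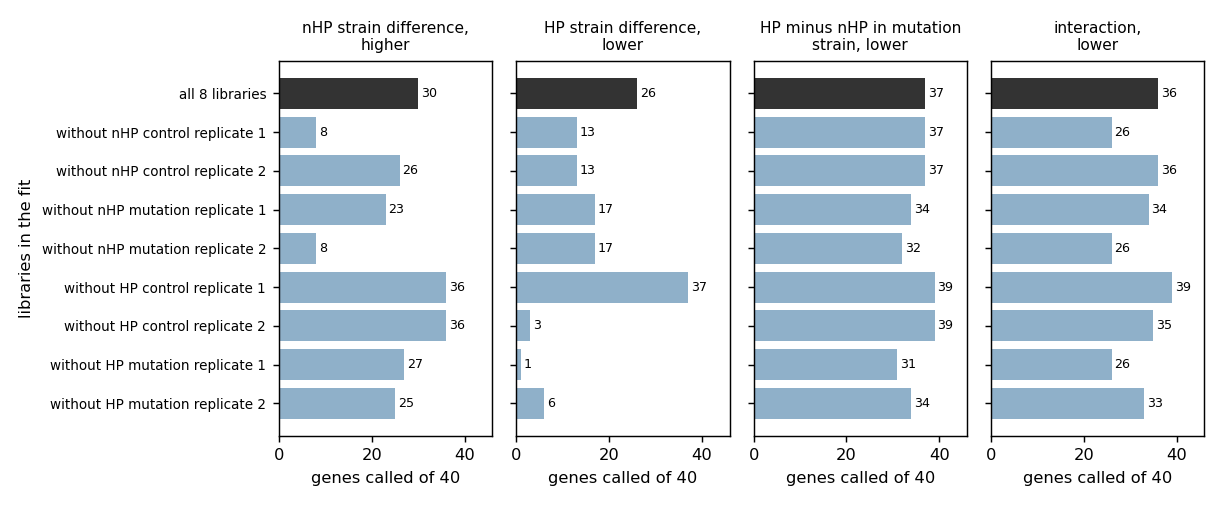
Number of the 40 genes called, in the stated direction, with all 8 libraries (dark bar) and without each library in turn (light bars), for 4 comparisons. The HP strain difference ranges from 1 to 37 genes, whereas HP minus nHP in the mutation strain stays between 31 and 39.

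Of the 40 genes, 21 rose in the nHP strain comparison and fell in the HP one. That is 21 of the 30 that rose and 21 of the 26 that fell, while 2.79% of all genes tested did both. These comparisons share no library, but both came from 1 fit to all 8 libraries, so their calls are not independent. The 40 values lay closer together than those of all genes, with an SD across genes of 0.16 in nHP, 0.12 in HP and 0.27 for HP minus nHP in the mutation strain, where all genes had 0.48, 0.51 and 0.55. In the HP strain comparison that SD was about as large as the median standard error of 1 gene, 0.12. The 40 genes also had a higher median level, 98.6 RPKM against 59.0 RPKM over all genes tested. The part of level in these SDs was not tested. The 28 genes with both promoter cores had a median of −0.88 for HP minus nHP in the mutation strain. The 8 with PAC alone had −0.59 and the 3 with neither −0.74, and UTP15, the only gene with RRPE alone, stood at −0.58. These are descriptions, and groups of 8 and 3 genes are small.

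Other genes for making ribosomes were set beside the 40. Of 44 other 40S assembly factors 25 rose and none fell in the nHP strain comparison, 15 fell and none rose in the HP one, and 37 fell and none rose for HP minus nHP in the mutation strain, with medians of 0.37, −0.27 and −0.67. Of 60 assembly factors of the 60S subunit 50 rose in the first, 26 fell in the second and 58 fell in the last of these, with medians of 0.56, −0.37 and −0.89. Of 56 genes of 40S ribosomal proteins none rose and 1 fell in the nHP strain comparison. Between the strains in HP none of the 56 passed in edgeR's quasi-likelihood test, 19 had an unadjusted p under 0.05, and all 56 values were below 0 with a median of −0.27. Of the same genes 48 fell for HP minus nHP in the mutation strain (median −0.48). None passed in the interaction in edgeR's quasi-likelihood test, with 6 at an unadjusted p under 0.05. Still, the interaction value was below 0 in 55 of these 56 genes, with a median of −0.31. The assembly factors shared the interaction of the 40 genes. It passed below 0 in 27 of the 44 other 40S factors and in 56 of the 60 60S factors. The medians were −0.68 and −0.90, and 14.6% of all genes tested passed below 0. Differences between these lists were not tested.

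The RNA partner of these proteins, U3, has a pair of near-identical genes in yeast, and how the counting divided reads between such copies is stated in no source used here, so their values are uncertain. SNR17A had 56 to 195 counts (6.93 to 21.7 CPM) and SNR17B 16 to 29 counts (1.80 to 3.14 CPM) per library. How well these libraries capture U3 RNA was not tested. SNR17A fell in the nHP strain comparison (−0.79 ± 0.19) and rose for HP minus nHP in the mutation strain (0.89 ± 0.18), where NOP1, NOP56 and NOP58 rose and fell, respectively. It did not pass in the HP strain comparison (−0.42 ± 0.16), for HP minus nHP in the control strain (0.51 ± 0.16) or in the interaction (0.38 ± 0.25). SNR17B did not pass in any of these comparisons. Its value had the sign of SNR17A in the nHP strain comparison (−0.25). For HP minus nHP in the mutation strain it had the opposite sign (−0.36).

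Among 10 regulators of ribosome biogenesis, SCH9, a kinase of the growth pathway, and ABF1, a general promoter factor, rose in the nHP strain comparison, by 0.61 ± 0.09 and 0.36 ± 0.10, and none fell. In the HP strain comparison CRF1, ABF1 and SFP1 rose, by 0.95 ± 0.11, 0.74 ± 0.10 and 0.42 ± 0.08, and TOD6 fell by 0.65 ± 0.12. Over all genes tested, 11.4% rose and 9.91% fell in the nHP strain comparison, and 14.7% rose and 14% fell in the HP one. For HP minus nHP in the mutation strain 4 of the 10 rose and 4 fell, where all genes tested had 25.2% and 24.1%. CRF1, a corepressor of ribosomal protein genes, rose by 1.45 ± 0.12, and ABF1, STB3 and the activator gene SFP1 rose by 0.53 ± 0.10, 0.41 ± 0.11 and 0.26 ± 0.08. TOD6, the repressor that binds PAC, fell by 0.69 ± 0.12, SCH9, RAP1 and FHL1 fell as well, and DOT6 and IFH1 did not pass.

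The reads cannot be assigned to a strand here. No member overlaps another gene of the R64 reference, and no stretch of 50 or more bases of a member matched another of its genes in BLAST. Of the 7126 gene IDs of the deposited table, 6162 were matched to reference genes. Deposited genes outside the reference were not checked, so overlap with those is not known. Of the 40 genes 15 have as upstream neighbour a gene that points away from them. Of the 14 such neighbours that were tested, 4 fell and 3 rose for HP minus nHP in the mutation strain. Among all genes tested, 24.1% fell and 25.2% rose there. The median of these neighbours was −0.14, where the median of the 14 genes beside them was −0.87. ECM16, for example, fell by 1.08 ± 0.09 on the log2 scale while SAS2, which starts 350 bases away, rose by 0.42.

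Outside the 40 genes, the profile over the 8 libraries most like their mean, by Pearson's r of log2 CPM among 5437 genes with at least 10 CPM on average, belonged to GCD6, RIX7, SSF1, RKI1, RPA49, PUF6, RRP12 and NOG1, with r from 0.992 to 0.996. RIX7, SSF1, PUF6 and NOG1 are 60S assembly factors, RRP12 is a 40S export factor, RPA49 is a subunit of RNA polymerase I, GCD6 is a subunit of the translation initiation factor eIF2B and RKI1 is an enzyme of the pentose phosphate pathway. In all, 536 of the 5437 genes had an r above 0.9, among them 33 of the 40. The 8 libraries form 4 groups, so r describes mostly 4 group levels.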

How the data were processed

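Per the labels' protocols, libraries were made from total RNA with a NEBNext Ultra kit, and per the submitters' processing notes reads were processed with TopHat2 2.0.9; the counting program, its strand setting and the genome build were not given in any source used here. The deposited counts are whole reads per gene and library without normalization. The deposited RPKM values are those counts per kilobase of a fixed gene length and per 1000000 of the column's total. The deposited summary of RPKM ranges was not used.

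Counts of all 7126 genes were tested with edgeR 4.0.16 in R 4.3.3 after its standard filter (6174 genes) and TMM composition scaling, with 1 quasi-likelihood fit to the 8 libraries (4 groups, 4 residual degrees of freedom). Benjamini-Hochberg adjustment ran over all genes tested. CPM are counts per 1000000 after TMM, and log2 CPM levels carry a prior count of 2. Floors cover counting error only. The scripts were tested on simulated data.

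The members, gene lists and tests were chosen with earlier results of these data known. Values in every library are given for the genes of largest and smallest strain difference in each role group of 3 or more, for UTP22, NOP1 and UTP10, and further genes were named after their values were seen; the 3 smallest and largest p were named per comparison. The labels do not say that equal replicate numbers mark a shared culture or day, so samples were not paired. Alternatives were other normalizations, filters and tests (DESeq2 1.42.0, limma 3.58.1), fewer libraries and a replicate block. BLAST 2.17.0 searched for near copies, and figures used matplotlib 3.10.9.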

Additional observations from a re-analysis of the deposited data

Results flagged for a closer look

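The strain difference of 36 of the 40 genes depended on the title, by the interaction term of edgeR's quasi-likelihood model, and in all 36 it was lower in HP than in nHP. The 3 with the smallest p were ECM16 (−0.95), BMS1 (−1.05) and KRR1 (−1.16), as log2 differences between the strain differences. Groups of 2 libraries are too small to test for a single outlying library.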

How the results depend on the processing

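Under no alternative did any of the 40 genes pass against the stated direction. In the nHP strain comparison 30 genes rose; limma on log2(RPKM + 1) gave 19, log2(RPKM + 0.1) gave 18 and leaving out single libraries 8 to 36. In the HP strain comparison 26 fell; the filter of 10 CPM in 2 libraries gave 16, limma on RPKM 13 and 11 (pseudocounts 1 and 0.1), only the libraries compared 3, and leaving out single libraries 1 to 37, with medians of −0.48 to −0.19. For HP against nHP in the control strain, leaving out single libraries gave 0 to 8 risers and medians from −0.087 to 0.24; the sign turned without HP control replicate 2. The interaction median of −0.93 was −0.78 without composition normalization, −0.75 and −0.77 on RPKM and −1.03 to −0.72 without single libraries. The replicate block raised the counts to 36, 35, 39 and 38 for nHP, HP, the mutation strain and the interaction. Calls over all genes in the same directions rose too, from 706, 862, 1486 and 899 to 925, 1251, 1629 and 1202. The labels give these samples only a shared number. Replicate gaps correlated over 0.1 in 4 of the 6 pairs of groups (−0.03 to 0.20), and whether a number marks a shared effect was not tested. Over the 40 genes in 5 comparisons, 200 results of which 129 were calls, the 17 alternatives gave 3360 values: 375 lost a call, 76 gained one, none turned sign while called, and 66 turned sign without a call. The cause of these shifts was not tested. With 2 libraries a group, a gene that did not pass may still differ.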
